A study of Mus musculus with 10 samples.

Results

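The first hour of cooling was read from 2 of the 10 samples, those taken 1 h after NIH3T3 cells were moved from 38 to 33 °C and at the move itself (0 h). NIH3T3 is an immortalised mouse fibroblast line, here wild type. All cells had been seeded at 37 °C for 4 h and then held for 16 h, at 38 °C before cooling and at 33 °C before the opposite shift, which serves as the comparison (33 to 38 °C, 1 h against 0 h). Ribosome-depleted total RNA was sequenced with strand-specific paired reads, and reads in exons and in introns were summed apart for each gene. There is 1 sample per time, so no p-value is given. Each sample has several columns, under numbered column series whose meaning the labels do not give, 5 and 11 for cooling and 2 and 13 for warming. Every 1 h column was set against the 0 h column of its own series, after scaling to reads per 1000000 reads of the column (RPM). A gene was counted where its reads averaged at least 50 over the 4 columns, and it was called as risen or fallen where both series passed 1.5-fold in the same direction, on the log2 scale with 0.1 RPM added. The table holds 38087 genes, of which 10759 were counted on intron reads and 10914 on exon reads. A further 1 h column, of series 10, was kept out of the calls as a check of the level at 1 h.

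Introns are removed from a transcript within minutes of its synthesis, so intron reads in total RNA come mostly from precursor RNA, and exon reads mostly from mature messenger RNA that can persist for hours. A change in transcription therefore tends to appear in introns before it appears in exons. In mammalian cells the heat shock factor HSF1 drives chaperone genes when temperature rises, and the RNA-binding proteins Cirbp and Rbm3 are known for higher levels in mild cold. Body temperature rhythms also act on the circadian clock of cultured fibroblasts, whose repressors are the Per and Cry proteins.

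The 180 bases upstream of the annotated start are shown for 4 chaperone genes whose intron reads fell and 2 clock genes whose intron reads rose, as examples of the gene groups described next. The windows are from RefSeq, build GRCm38.p6, 5′ to 3′ on the gene's strand. Capitals mark a heat shock element core, GAANNTTC or TTCNNGAA, in the chaperone genes and an E-box, CACGTG, in the clock genes. The windows are at chr5:149636337-149636516 (minus strand), chr4:40722288-40722467 (plus strand), chr8:83607995-83608174 (plus strand), chr19:7040027-7040206 (minus strand), chr11:69098769-69098948 (plus strand) and chr10:85185055-85185234 (minus strand).
Hsph1: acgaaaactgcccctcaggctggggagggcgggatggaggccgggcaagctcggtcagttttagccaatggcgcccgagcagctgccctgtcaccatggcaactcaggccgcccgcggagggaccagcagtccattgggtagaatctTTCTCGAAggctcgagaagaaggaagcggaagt
Dnaja1: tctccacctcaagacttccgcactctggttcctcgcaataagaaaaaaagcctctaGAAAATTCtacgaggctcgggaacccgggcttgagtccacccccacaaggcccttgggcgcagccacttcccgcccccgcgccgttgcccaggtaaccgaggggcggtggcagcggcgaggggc
Dnajb1: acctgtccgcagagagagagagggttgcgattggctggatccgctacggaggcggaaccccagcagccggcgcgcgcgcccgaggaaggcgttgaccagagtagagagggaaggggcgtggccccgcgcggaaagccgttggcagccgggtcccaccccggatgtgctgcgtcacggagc
Stip1: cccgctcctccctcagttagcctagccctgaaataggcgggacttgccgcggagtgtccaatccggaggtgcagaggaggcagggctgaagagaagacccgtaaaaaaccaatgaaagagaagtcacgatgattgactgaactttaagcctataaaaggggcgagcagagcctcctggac
Per1: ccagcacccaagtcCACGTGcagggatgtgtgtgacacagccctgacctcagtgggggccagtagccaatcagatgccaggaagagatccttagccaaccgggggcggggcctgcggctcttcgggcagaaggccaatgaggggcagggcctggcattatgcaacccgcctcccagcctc
Cry1: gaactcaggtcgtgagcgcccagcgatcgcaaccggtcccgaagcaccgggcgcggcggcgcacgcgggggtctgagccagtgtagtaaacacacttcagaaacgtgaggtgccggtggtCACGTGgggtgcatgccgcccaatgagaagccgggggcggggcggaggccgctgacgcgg
The Hsph1 match begins 33 bases before the RefSeq start and the Dnaja1 match 124 bases before it. In the GENCODE coordinates given below for Hsph1 the start lies farther upstream, so there the match falls inside the gene. The Dnajb1 and Stip1 windows hold no match in these letters. The E-box of Cry1 begins 60 bases before the start and that of Per1 166 bases before it. The window of Cry2, which also rose on introns, is not printed and holds no E-box. The shares of promoters with each motif were taken over windows from 250 bases before to 50 bases after the start, read on both strands.

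On intron reads 255 genes rose and 218 fell, which is 2.37% and 2.03% of the genes counted. The values are shares of a library, so a change in RNA per cell or in the mix of cells cannot be told apart from one in a gene's share. A change of any size had the same sign in both series for 7917 genes (3688 up and 4229 down), and opposite signs for 2842. Past 1.5-fold, 6 genes moved in opposite directions (AC122296.2, Abhd3, Adora2a, BC049715, Nop10 and Rxfp1). Across the genes counted, the changes of the 2 series, which belong to the same pair of samples, had a Pearson r of 0.71 and a Spearman rho of 0.69. The series were not alike in balance. Series 5 alone had 574 genes past 1.5-fold up and 1024 down, and series 11 alone had 494 up and 289 down. At the lower edge of the calls, Gipc2 (1.18 and 0.59, log2 change in series 5 and 11) lay just inside and Adam21 (0.58 and 0.81) just outside among rising genes. Among falling genes, Mdm2 (-1.07 and -0.59) lay just inside and Onecut2 (-0.79 and -0.58) just outside.

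On exon reads 23 genes rose and 23 fell, 0.211% of the genes counted in each direction, and 10 moved in opposite directions. The changes of the 2 series had a Pearson r of 0.20 across genes on exons. One hour after the shift the calls were thus more frequent on introns than on exons, while past 2-fold in both series the counts were 57 up and 24 down on introns and 3 up and 2 down on exons.

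**Figure D1:**
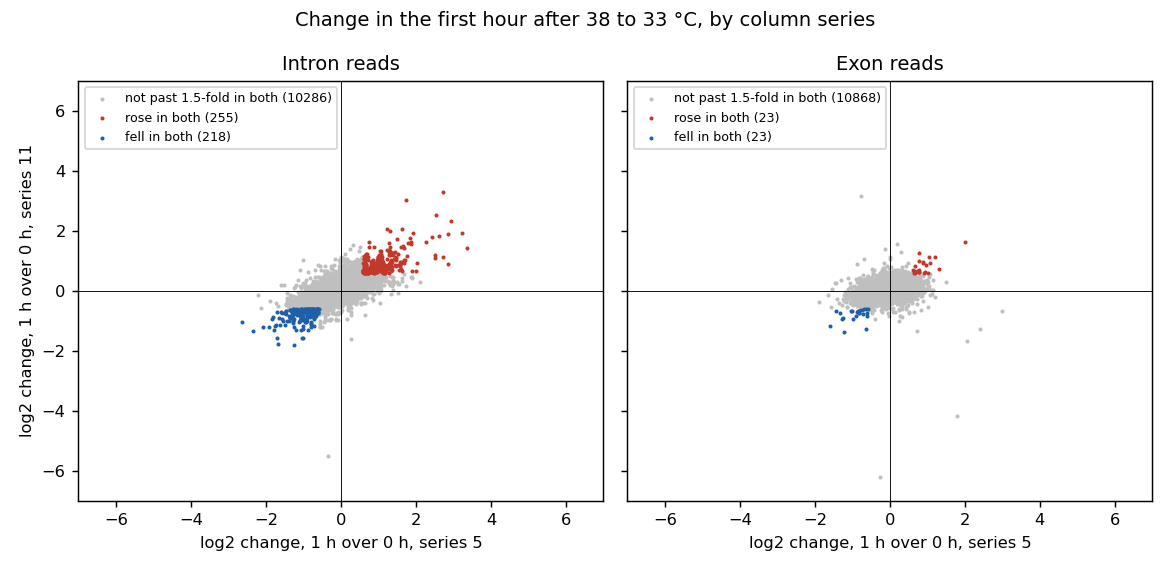
Log2 change at 1 h over 0 h in series 5 (horizontal) and series 11 (vertical), for intron reads (left) and exon reads (right), 1 point per gene counted. The 255 genes that rose and the 218 that fell lie in opposite corners on introns, and 23 in each direction do so on exons.

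Chaperone genes of the heat shock response were among those that fell on introns within the hour. From a list of 37 targets of HSF1 and partner chaperones, 33 were counted, 6 fell (18.2%, beside 2.03% of all genes) and none rose. The 6 were Hsph1, Dnajb1, Dnaja1, Stip1, St13 and Hspa8. The median change of the list was -0.49 (log2, mean of both series), beside -0.02 over all genes. At any size 24 members were lower and 4 higher in both series, beside 4229 lower and 3688 higher of all 10759 genes. The median was -0.72 in series 5 and -0.19 in series 11.

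Hsph1 encodes the large chaperone HSP105, which exchanges nucleotide on HSP70 (chr5:149614287-149636376, minus strand, GRCm38). Its intron reads were 107 and 125 RPM at 1 h in series 5 and 11, against 363 and 281 RPM at 0 h. The levels at both times did not overlap, and the series 10 column at 1 h, 120 RPM, lay between the other 1 h columns. The log2 changes were -1.76 and -1.17, and the summed reads gave an interval of -1.51 to -1.42 (exact binomial, 95%, counting error only, as for all intervals here).

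Dnajb1 and Dnaja1 encode J-domain co-chaperones that deliver clients to HSP70. Dnajb1 had 6.74 and 7.93 intron RPM at 1 h, against 24.6 and 15.1 at 0 h (log2 changes of -1.85 and -0.92). Dnaja1 had 35.9 and 34.4 intron RPM at 1 h, against 87.3 and 57.2 at 0 h (log2 changes of -1.28 and -0.73). In both genes the series 5 column at 0 h was the highest, and every 1 h column, that of series 10 included, was below both 0 h columns.

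Stip1, the adaptor HOP that links HSP70 to HSP90, had 122 and 112 intron RPM at 1 h, against 291 and 181 at 0 h. St13, an HSP70-interacting protein, had 234 and 194 intron RPM at 1 h, against 459 and 295 at 0 h. Hspa8, the constitutive HSC70, had 2.79 and 2.22 intron RPM at 1 h, against 5.09 and 3.64 at 0 h, on 59 and 52 reads at 1 h and 107 and 79 at 0 h. All 6 genes had lower levels in both 1 h columns than in both 0 h columns. The calls favour such separation, since both series had to pass 1.5-fold the same way, and its share over all genes is not given. This limit holds for every called gene whose columns are described here as separating the times.

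Members that were counted and missed the threshold in 1 series included Chordc1 (-1.06 and -0.55), Ahsa2 (-1.09 and -0.39), Serpinh1 (-1.0 and -0.36) and Hsp90aa1 (-0.99 and -0.22). Serpinh1 encodes the collagen chaperone HSP47 and Hsp90aa1 the inducible HSP90. The subunits Cct2 (0.05 and 0.13) and Cct4 (0.05 and 0.24) of the cytosolic chaperonin and the factor Hsf1 itself (0.05 and -0.01) had values near 0. On exons 36 list members were counted and none was called, where 0.211% of all genes were called in each direction. At that share a list of this size would seldom hold a call. The exon changes of Hsph1 were -0.37 and -0.16 and those of Dnajb1 -0.63 and -0.29. In the promoter windows, a heat shock element core was found for 8 of the 25 list members with a window (32.0%), beside 11.4% of 7747 genes counted on introns and 15.1% of all 27025 windows. Among genes that fell on introns the share was 12.6% (19 of 151), and among genes that rose it was also 12.6% (22 of 174).

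**Figure D2:**
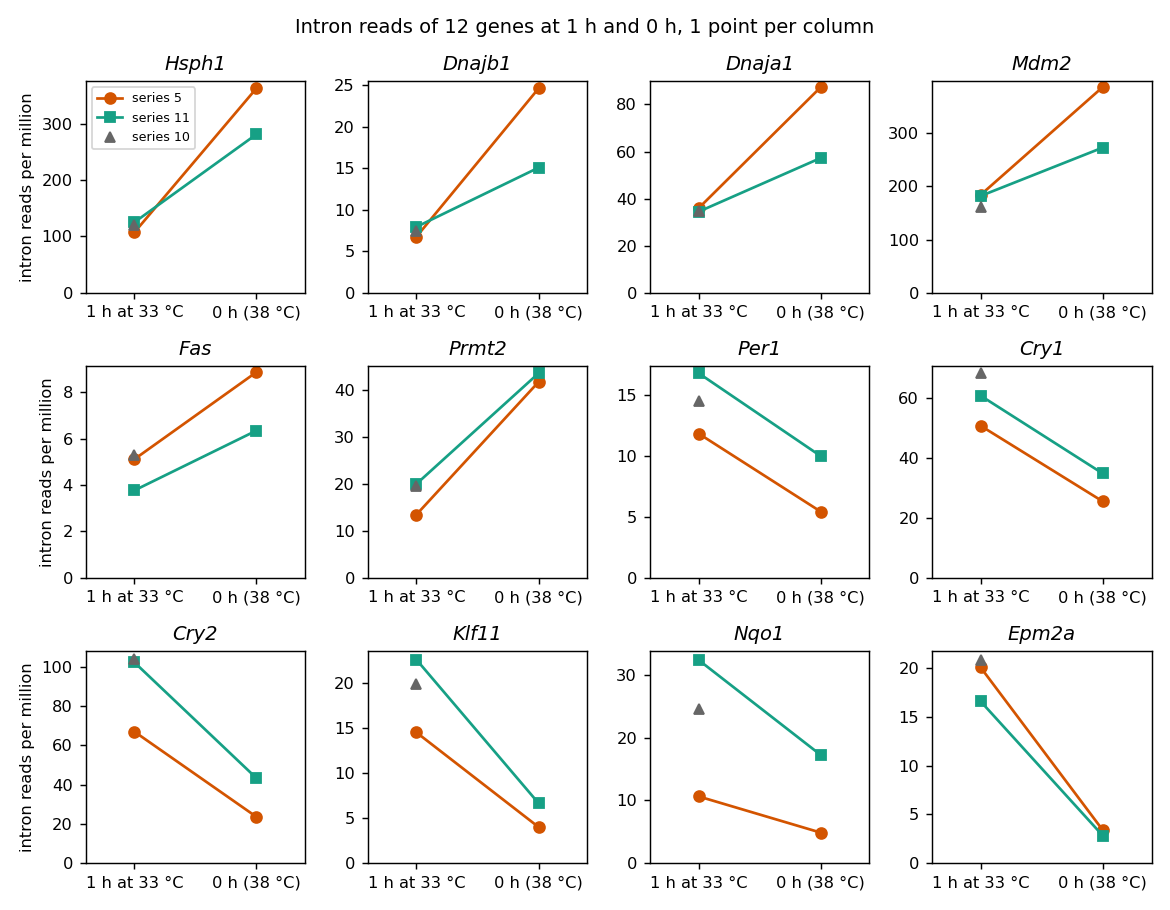
Intron RPM (vertical, linear from 0) of 12 genes, with 1 h left of 0 h and 1 point per column. Lines join the columns of series 5 (circles) and series 11 (squares), and the triangle is the series 10 column at 1 h. Hsph1, Dnajb1, Dnaja1, Mdm2, Fas and Prmt2 lie lower at 1 h in both series, and Per1, Cry1, Cry2, Klf11, Nqo1 and Epm2a lie higher.

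Targets of the tumour suppressor p53 were lower on introns in most members, but few passed the threshold. From 21 listed genes 17 were counted, 2 fell (Mdm2 and Fas, 11.8%, beside 2.03% of all genes), and none rose. The list's median was -0.56, with -0.73 in series 5 and -0.32 in series 11. At any size 15 members were lower in both series, beside 4229 of all 10759 genes. Mdm2, the ubiquitin ligase that degrades p53, had 184 and 182 intron RPM at 1 h, against 387 and 273 at 0 h. Fas, a death receptor, had 5.12 and 3.77 intron RPM at 1 h, against 8.88 and 6.35 at 0 h. The columns of both genes did not overlap between the times, a separation that the calls favour. Cdkn1a, the cell cycle inhibitor p21, had log2 changes of -0.91 and -0.46, and the stress sensor Sesn2 had -0.88 and -0.55. Rrm2b, a ribonucleotide reductase subunit, was the only member higher in both series (0.22 and 0.25). On exons none of 18 counted members was called, beside 0.211% of all genes in each direction.

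Clock repressor genes were among those that rose on introns. From 23 listed clock genes 18 were counted and 3 rose (16.7%, beside 2.37% of all genes), namely Per1, Cry1 and Cry2, while none fell. The median of the list, 0.00, was close to that of all genes. Cry2 had 67.1 and 103 intron RPM at 1 h, against 23.5 and 43.3 at 0 h (log2 changes of 1.51 and 1.24). Cry1 had 50.6 and 60.7 intron RPM at 1 h, against 25.4 and 34.7 at 0 h (0.99 and 0.80). Per1 had 11.8 and 16.8 intron RPM at 1 h, against 5.42 and 9.97 at 0 h (1.1 and 0.74). In all 3 genes both 1 h columns lay above both 0 h columns, a separation that the calls favour. The series 10 column, 104 RPM for Cry2, 68.3 for Cry1 and 14.5 for Per1, also lay above both 0 h columns. Their exon changes did not pass the threshold in both series, with 0.78 and 0.46 for Cry2, 0.34 and 0.25 for Cry1 and 1.03 and 0.18 for Per1. Per2, the partner of Per1, had intron changes of 0.65 and 0.31, and the activators Clock (-0.29 and -0.11) and Arntl (-0.20 and -0.32) had negative values. Other members were mixed in sign, such as Nr1d1 (-0.06 and -0.17), Nr1d2 (0.33 and 0.27) and Rora (-0.12 and 0.15). An E-box was found in 19 of 174 promoter windows of genes that rose on introns (10.9%), beside 10.6% of the genes counted.

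Some transcription factor genes rose as well. Klf11, a zinc finger factor of TGF-beta signalling, had 14.5 and 22.6 intron RPM at 1 h, against 3.99 and 6.64 at 0 h, with log2 changes of 1.84 and 1.75. It also rose on exons, with 11.7 and 18 RPM at 1 h, against 5.65 and 8.20 at 0 h. Klf2, a factor known for its response to shear stress in endothelium, had 10.6 and 20.5 intron RPM at 1 h, against 4.05 and 12.6 at 0 h. The Klf2 column of series 5 at 1 h lay below that of series 11 at 0 h, so its levels overlapped between the times although each series rose. Creb5, a leucine zipper factor, had 48.8 and 28.7 intron RPM at 1 h, against 10.1 and 9.17 at 0 h.

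From 32 listed immediate early factors 15 were counted on introns, where 1 rose (Klf2, beside 2.37% of all genes), and 25 on exons, where 2 rose (Nr4a1 and Klf2, beside 0.211% of all genes). The exon median of this list was 0.26, and 17 members were higher and none lower in both series at any size, beside 3085 higher and 2785 lower of all 10914 genes. On warming the exon median of the list was 0.03 in series 2 and 0.08 in series 13, so no opposite shift is seen there. Nr4a1, an orphan nuclear receptor induced by growth factors, had 7.51 and 16.5 exon RPM at 1 h, against 4.35 and 8.19 at 0 h.

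Oxidative stress genes under the factor NRF2 were counted in 18 of 18 cases, and 2 rose on introns (11.1%, beside 2.37% of all genes). Nqo1, a quinone reductase, had 10.6 and 32.4 intron RPM at 1 h, against 4.85 and 17.3 at 0 h, and here the 2 series differed by more than the times did. Osgin1, an oxidative stress-induced growth inhibitor, had 6.55 and 7.54 intron RPM at 1 h, against 2.85 and 4.19 at 0 h. Hmox1, heme oxygenase, had negative values in both series (-0.79 and -0.27).

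Single members of other lists were also called on introns, where 2.37% of all genes rose and 2.03% fell. Rises were 1 of 22 counted members for fibroblast matrix, 1 of 32 for G1/S and replication and 1 of 20 for hnRNP genes. They were 1 of 24 for glycolysis and hypoxia and 1 of 6 for the interferon response. Falls were 1 of 16 for the ATF4 list and 1 of 12 for NF-kappaB targets. With 1 call each, nothing is read about these lists. Fn1, fibronectin, had 1175 and 978 intron RPM at 1 h, against 688 and 606 at 0 h, while its exon changes were 0.15 and -0.22. Pole, the catalytic subunit of DNA polymerase epsilon, had log2 intron changes of 1.19 and 0.73, and the splicing repressor Ptbp2 had 0.91 and 0.66. Ndrg1, a hypoxia-responsive gene, had 1.09 and 0.63, and the interferon-induced GTPase Gbp2 had 1.1 and 0.59. Chac1, a glutathione-degrading enzyme induced by ATF4, fell (-1.28 and -0.69), as did the chemokine gene Cxcl1 (-1.03 and -1.56).

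**Figure D3:**
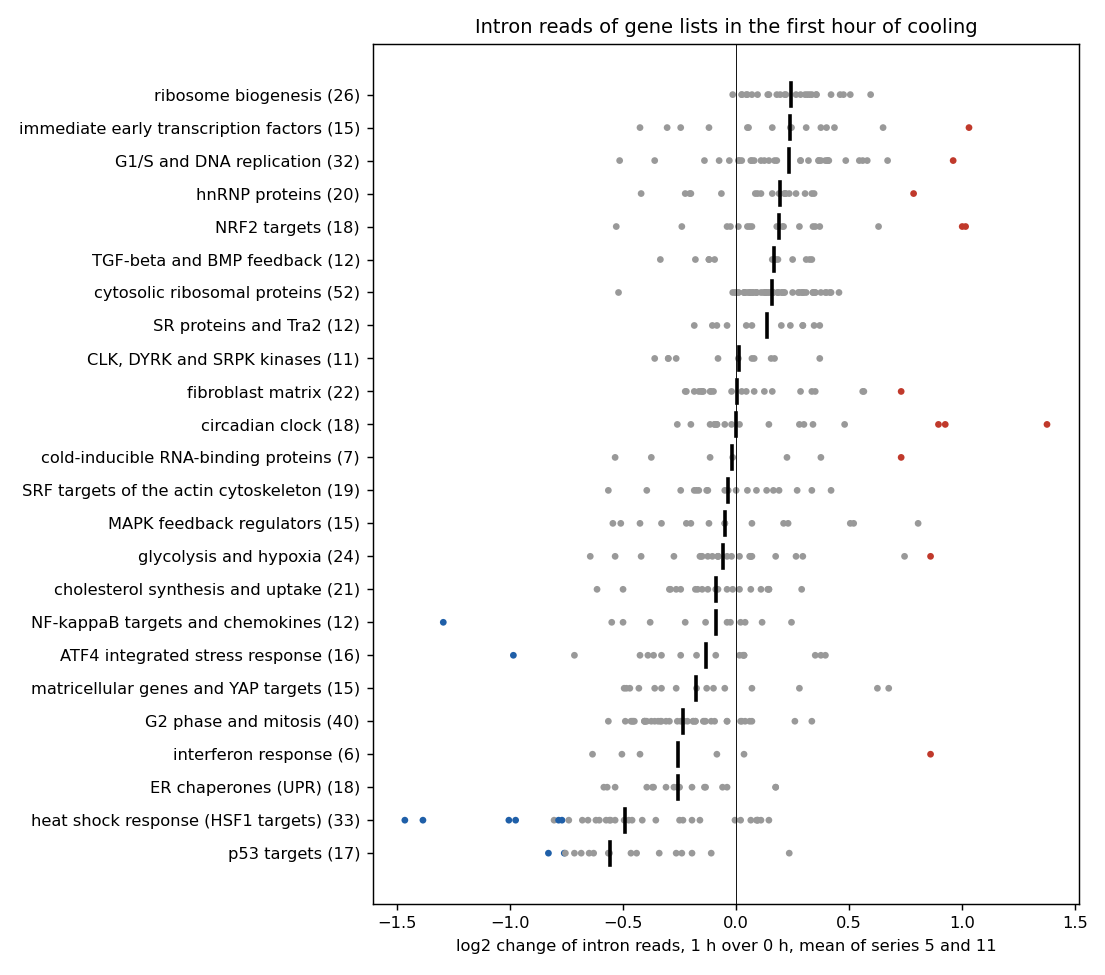
Mean log2 change of intron reads at 1 h over 0 h (horizontal) for each counted member of the gene lists with at least 5 counted members (numbers in brackets), with bars for list medians, red for genes that rose, blue for genes that fell and grey for the rest. The p53 list (median -0.56) and the heat shock list (median -0.49) lie lowest, and ribosome biogenesis (0.24) lies highest.

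Several lists shifted by small amounts with few or no calls. Of all genes, 2.37% rose and 2.03% fell on introns, and 0.211% did so in each direction on exons. At those shares lists of this size would hold few calls. Ribosome biogenesis genes had a median intron change of 0.24, with 22 of 26 counted members higher and none lower in both series, and no member was called. Cytosolic ribosomal protein genes had a median of 0.16, with 35 of 52 higher and 1 lower in both series. Of all 10759 genes, 3688 were higher and 4229 lower on introns in both series at any size. Genes of the G1/S transition and DNA replication had a median of 0.23 and 1 call, Pole. Genes of G2 phase and mitosis had a median of -0.24, made of -0.42 in series 5 and -0.04 in series 11. Chaperones of the endoplasmic reticulum had a median of -0.26 (-0.40 in series 5 and -0.04 in series 11), and 0 of 18 were called. Replication-dependent histone genes, which mostly lack introns, had a median exon change of -0.33, with -0.58 in series 5 and -0.07 in series 11, and 0 of 47 were called. The values of these last 3 lists rested mainly on series 5.

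Among all genes, the largest intron rises, ranked by the smaller of the 2 changes, were mixed in kind. The long noncoding RNA 8430419K02Rik had 9.51 and 5.88 RPM at 1 h, against 1.37 and 0.513 at 0 h (2.71 and 3.29). Epm2a, which encodes the glycogen phosphatase laforin, had 20.1 and 16.6 intron RPM at 1 h, against 3.38 and 2.81 at 0 h. Its exon reads were 0.231 and 0.113 RPM at 1 h and 0.220 and 0.188 at 0 h, too few to be counted. Whether the intron reads come from Epm2a transcripts was not tested. The transcript 0610010O12Rik, now named Cystm1, had changes of 3.22 and 1.93. All 3 of these separated the times in every column, which the calls favour.

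Further rises among the first 15 were E230016M11Rik, B430319H21Rik, Pde2a, Apol8, Klf11, Tbc1d10c, Creb5, Nostrin, Tex14, RP23-59P17.2 and Nt5dc1. Their smaller changes ran from 1.92 for E230016M11Rik to 1.55 for Nt5dc1. E230016M11Rik overlaps Gadd45a on the opposite strand, Nt5dc1 overlaps Col10a1 likewise, and the identifier given as Pde2a overlaps Arap1, so their reads are uncertain in origin. Nt5dc1 was the best covered of these, with 2208 and 2750 intron reads at 1 h, against 593 and 867 at 0 h.

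The largest falls were led by Noxred1, a gene of the oxidoreductase family, with 1.38 and 0.963 intron RPM at 1 h, against 4.68 and 3.55 at 0 h. Ranbp3l, a relative of a Ran-binding export factor, had 25.2 and 91.0 intron RPM at 1 h, against 129 and 231 at 0 h. AB041803, now named Lncpint, is a long noncoding RNA, and it had 106 and 116 RPM at 1 h, against 246 and 290 at 0 h. Prmt2, an arginine methyltransferase, had 13.4 and 19.95 intron RPM at 1 h, against 41.6 and 43.5 at 0 h. Each of these 4 had lower levels in both 1 h columns than in both 0 h columns, which the calls favour.

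The other falls among the first 15 were Gm12940, Gm13830, Impg2, Kctd21, Nadsyn1, Syt11, Hsph1, 6530418L21Rik (now Inka2), Slc27a3, Abcg4 and Zfp319. Gm12940 overlaps the splicing factor gene Sfpq on the same strand. The smaller changes ran from -1.69 for Noxred1 to -1.07 for Abcg4 and Zfp319. Abcg4, a sterol transporter, also fell on exons, with 1.82 and 1.34 RPM at 1 h, against 5.73 and 3.16 at 0 h.

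Cirbp, the cold-inducible RNA-binding protein of the study's title (chr10:80165985-80172786, plus strand, GRCm38), led the exon rises. It had 14.2 and 17.3 exon RPM at 1 h, against 3.5 and 5.54 at 0 h, and the series 10 column at 1 h had 13.8 RPM. The log2 changes were 1.99 and 1.62, with an interval of 1.64 to 2.0. Its intron reads rose less, with 12.2 and 14.6 RPM at 1 h, against 6.76 and 9.45 at 0 h (0.84 and 0.62). The exon-to-intron change was therefore 1.15 in series 5 and 1.01 in series 11. Rbm3, the other well-known cold-inducible member, had 109 and 74.3 exon RPM at 1 h, against 51.5 and 80.5 at 0 h, so its exon values (1.07 and -0.12) disagreed between the series. Its intron changes were -0.39 and -0.68.

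Next to Cirbp, the exon rises were led by Ppp1r15a, the phosphatase subunit GADD34 that reverses phosphorylation of the initiation factor eIF2. It had 39.7 and 45.8 exon RPM at 1 h, against 17.3 and 20.8 at 0 h, with log2 changes of 1.2 and 1.14. Klf11 followed, and then 2610203C20Rik, a noncoding transcript that overlaps the microRNA genes Mir100, Mirlet7a-2 and Mir125b-1, with 185 and 117 exon RPM at 1 h, against 88.7 and 61.3 at 0 h. Mpv17l, Arrdc3, B930036N10Rik, Frat2, Nr4a1 and Klf2 complete the first 10. Arrdc3, an arrestin-domain adaptor, had 28.8 and 33.0 exon RPM at 1 h, against 15.7 and 17.1 at 0 h. Spry2, a feedback inhibitor of receptor tyrosine kinase signalling, and Ctgf, a matricellular YAP target now named Ccn2, also rose (0.92 and 0.60 for Spry2, 0.65 and 0.66 for Ctgf). They were 1 of 17 counted MAPK feedback regulators and 1 of 15 counted matricellular genes and YAP targets, beside 0.211% of all genes. The intron medians of these lists were -0.05 and -0.18, and Spry2 introns changed by 0.44 and -0.02. With 1 call each, nothing is read about either list.

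The exon falls were nearly all of low counts, since 21 of the 23 averaged between 50 and 200 reads. The first 10 were AL670673.1, Abcg4, Gm9900, 5430405H02Rik, Efnb3, a second identifier named Zfp319, Cspg5, D030047H15Rik, Gm3912 and AC112688.1. Efnb3, an ephrin ligand, had 1.1 and 1.1 exon RPM at 1 h, against 2.76 and 2.19 at 0 h. Irf9, the DNA-binding subunit of the interferon-stimulated complex, had 5.32 and 6.21 exon RPM at 1 h, against 9.79 and 10.1 at 0 h.

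Exon and intron reads of a gene can move apart, and their ratio was counted for 9745 genes with enough reads of both kinds. The exon-to-intron ratio rose for 189 genes (1.94%) and fell for 156 (1.6%), with 1 gene in opposite directions. In the largest falls, introns were higher and exons little changed. Prdx4, an endoplasmic reticulum peroxiredoxin, had 4.35 and 3.5 exon reads per intron read at 1 h, against 11.3 and 9.94 at 0 h, with intron changes of 1.30 and 1.48 and exon changes of 0.06 and -0.12. Tap2, a transporter of antigen peptides, had 2.44 and 2.31 exon reads per intron read at 1 h, against 6.41 and 7.19 at 0 h. Eif2ak2, the double-stranded RNA sensor PKR, had 0.725 and 0.734 exon reads per intron read at 1 h, against 1.91 and 1.60 at 0 h. Rdm1 and Rmi2 were further large falls. The largest rises were Ranbp3l, Syt11, 2010012O05Rik (now Borcs7), Kctd21, Mrps6 and 2010107H07Rik (now Smim4). Ranbp3l had 0.310 and 0.307 exon reads per intron read at 1 h, against 0.0864 and 0.104 at 0 h. For 2010012O05Rik, exon reads (0.77 and 0.69) and intron reads (-0.65 and -0.71) moved in opposite directions.

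The opposite shift gave values for the same genes in columns that share no sample with cooling. Of the 255 genes whose introns rose on cooling, 124 fell (48.6%) and 0 rose past 1.5-fold in both series in the first hour of warming, where 3.08% of all genes counted in that course fell. Of the 218 genes that fell on cooling, 103 rose (47.2%) and 0 fell, where 3.54% of all genes rose. At any size, 238 of the 255 were lower on warming in both series, and 210 of the 218 were higher. Of all 10759 genes, 4112 were lower and 3801 higher on warming in both series. The median warming change was -0.66 in series 2 and -0.79 in series 13 for the cooling risers, and 0.76 and 0.69 for the cooling fallers. Across the 10759 genes, mean intron changes on cooling and on warming had a Pearson r of -0.73 and a Spearman rho of -0.71.

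The heat shock list had warming medians of 0.99 in series 2 and 1.1 in series 13, beside cooling medians of -0.72 in series 5 and -0.19 in series 11. Hsph1 changed by -1.76 and -1.17 on cooling and by 1.97 and 2.21 on warming, and Dnajb1 by -1.85 and -0.92 on cooling and 2.16 and 2.46 on warming. The p53 list had warming medians of 0.67 in series 2 and 0.45 in series 13. Of its genes that fell on cooling, Fas (-0.78 and -0.74) had 1.92 and 1.96 on warming, the highest of the list, and Mdm2 had 0.89 and 0.56. The clock genes that rose on cooling had warming values of -0.33 and -0.48 for Cry2, -0.26 and -0.48 for Cry1 and -0.33 and -1.30 for Per1, and none of the 3 passed 1.5-fold in both warming series. On exons, 9 of the 23 cooling risers fell on warming and 6 of the 23 cooling fallers rose, where 0.481% and 0.671% of all genes did. Cirbp exon reads changed by 1.99 and 1.62 on cooling and by -0.42 and -0.60 on warming.

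**Figure D4:**
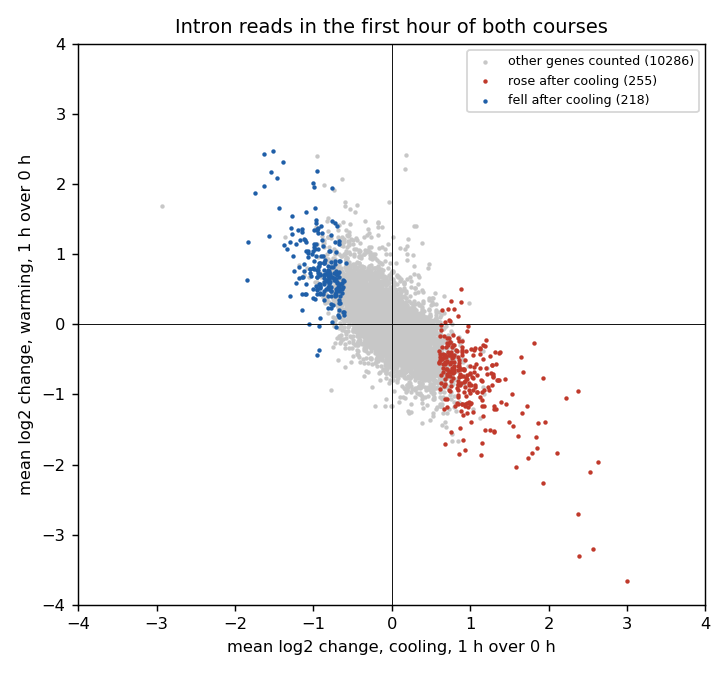
Mean log2 change of intron reads at 1 h over 0 h on cooling (horizontal) and on warming (vertical), 1 point for each of the 10759 genes counted. Of the 255 genes that rose on cooling, 124 fell on warming past 1.5-fold in both series, and of the 218 that fell, 103 rose.

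The 1 h column of series 10, which no call used, placed the called genes near the other 1 h columns. Its median distance from the mean of the 1 h columns was -0.01 for intron risers and 0.08 for intron fallers (log2). From the mean of the 0 h columns it was 0.95 for risers and -0.82 for fallers. It lay nearer to the 1 h mean for 231 of the 255 risers and 196 of the 218 fallers, beside 7042 of all 10759 genes. Series 10 has no 0 h column, so its value holds any constant difference of that series as well. The genes were also chosen on the same 1 h and 0 h columns that series 10 is set against here. That choice favours both the distances from the 0 h mean and the counts nearer to the 1 h mean, and by how much was not tested.

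The later samples of the cooling course show where the genes called at 1 h stood afterwards, with all times set against the same 0 h columns. For genes whose introns rose, the median intron change in series 5 and 11 was 0.99 and 0.80 at 1 h, 0.97 and 0.68 at 3 h, 0.85 and 0.64 at 6 h and 0.83 and 0.57 at 9 h. The median exon change of the 156 of them counted on exons was 0.26 and 0.09 at 1 h, 0.55 and 0.33 at 3 h, 0.68 and 0.42 at 6 h and 0.65 and 0.46 at 9 h. For genes whose introns fell, the median intron change was -1.0 and -0.72 at 1 h and -0.78 and -0.77 at 9 h. The exon median of the 165 counted was -0.22 and 0.04 at 1 h and -0.62 and -0.50 at 9 h. The genes were chosen on these 1 h intron values, so nothing is read from how their later intron medians compare with them. The exon medians, which the choice did not use, lay farther from 0 at 9 h than at 1 h in both directions.

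Single genes differed in their course. Hsph1 introns were at -1.76 and -1.17 at 1 h and -1.19 and -0.71 at 9 h, and its exons at -0.37 and -0.16 at 1 h and -1.73 and -1.22 at 9 h. Per1 introns, high at 1 h (1.1 and 0.74), had 0.02 and -0.01 at 6 h. Klf11 introns had 1.84 and 1.75 at 1 h and 1.29 and 0.20 at 9 h. Nqo1 exons had 0.18 and -0.03 at 1 h and 1.79 and 1.42 at 9 h. Cirbp exons had 1.99 and 1.62 at 1 h and 4.14 and 3.62 at 9 h.

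**Figure D5:**
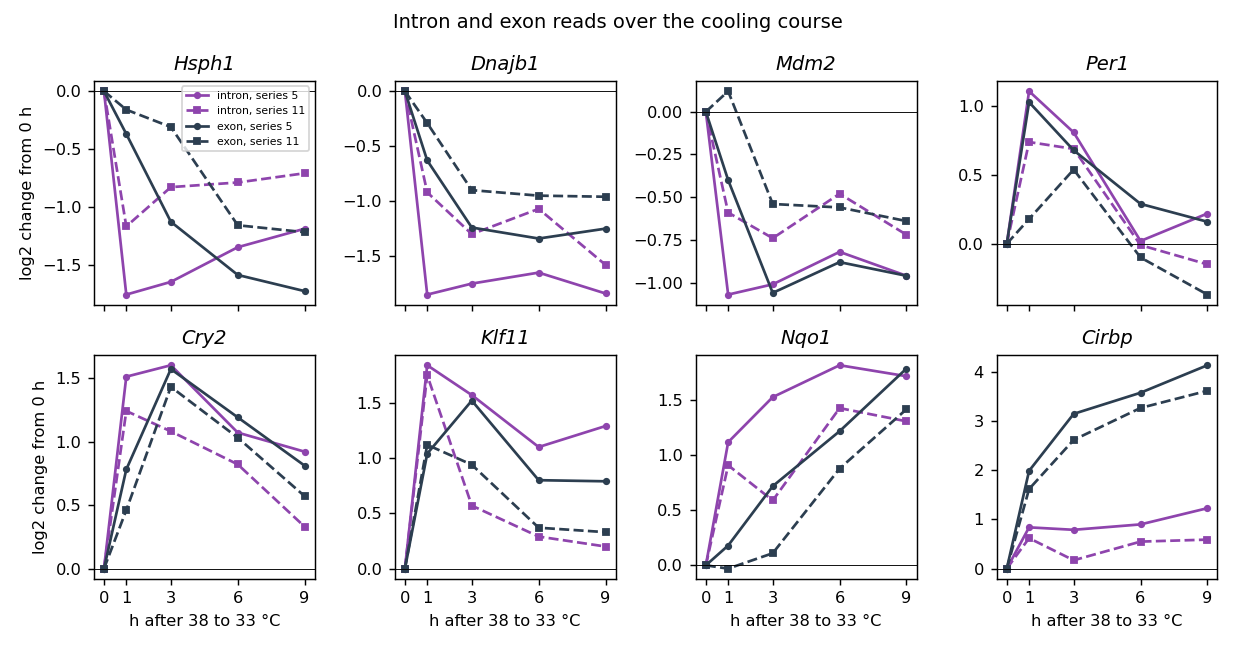
Log2 change from 0 h (vertical) of intron reads (purple) and exon reads (dark) at 1, 3, 6 and 9 h of cooling (horizontal, h) for 8 genes, with solid lines for series 5 and dashed lines for series 11. Intron reads of Hsph1, Dnajb1 and Mdm2 are below 0 and those of Per1, Cry2, Klf11, Nqo1 and Cirbp above it at 1 h, and exon reads of Hsph1 reach -1.73 and -1.22 at 9 h.

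The share of genes called was higher at lower depth. Genes with an average of 50 to 200 intron reads were called in 10.4% of cases, those with 200 to 1000 in 4.54% and those with 1000 or more in 2.0% (45 up and 56 down). The median over genes was 240 intron reads for risers and 314 for fallers, beside 887 for all genes counted. Another annotated gene overlapped 59.1% of risers and 52.1% of fallers, beside 56.9% of all. Protein-coding genes made up 90.1% of risers and 85.3% of fallers, beside 95.1% of all, and median intron length was 26165 bases for risers and 14990 for fallers, beside 22253 for all. The part of depth in the calls was not tested.

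The columns held 31945537 to 39609596 exon reads and 21170985 to 23464952 intron reads at 1 h, and 34005903 to 34667592 exon reads and 21026236 to 21680089 intron reads at 0 h. Intron reads per exon read were 0.663 in series 5, 0.592 in series 11 and 0.664 in series 10 at 1 h, against 0.607 in series 5 and 0.638 in series 11 at 0 h, so this ratio moved in opposite directions in the 2 series. Fibroblast markers (10 genes) summed to 20410 and 22650 exon RPM at 1 h, against 19790 and 22940 at 0 h. The members differed widely. Vim was the highest, with 7084 and 7325 RPM at 1 h, and Dcn the lowest, with 5.45 and 7.72 RPM at 1 h. Summed markers of 6 other cell types stayed at or below 6.39 RPM in every column, with neuron markers between 0.0819 and 0.174 RPM and adipocyte markers between 0 and 0.164 RPM. One exon value stood apart, that of Lars2, a mitochondrial leucyl-tRNA synthetase, whose exon change was -6.19 in series 11. That value is from 1 series, its source was not tested, and nothing is read about the gene.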

How the data were processed

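Ribosome-depleted total RNA of NIH3T3 cells was sequenced by the authors, who used STAR, bedtools and the mm10 build, as the submitters' processing notes state without versions. The deposited tables hold estimated counts of exon and intron reads for 38087 genes, though their names speak of RPKM. The sources used here do not give the annotation behind the counts, the assignment of reads shared between genes or any use of strand, so overlapping genes are uncertain. Of these genes, 36308 (95.3%) were found by identifier in GENCODE M21 (GRCm38), used for coordinates and overlaps. A symbol borne by several identifiers was taken in lists as the one with the most reads.

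Each column was scaled to 1000000 reads by its own total, exons and introns apart, and log2 changes used a pseudocount of 0.1. The pseudocount shrinks the changes of low genes. The labels give 1 sample per time, so no test was run. They leave it unsaid whether columns came from separate cultures, so which kind of spread lies between the series is not known. Intervals are exact binomial (95%) on summed reads and cover counting error only. TMM factors came from edgeR 4.0.16 (R 4.3.3) on rounded counts and served as an alternative scaling only. Other steps used Python 3.11.15, pandas 2.3.3 and SciPy 1.17.1. The calling steps were tested on simulated data. Those data held counting error only and gave each changed gene the same fold in both series, so they do not show how often the calls here are wrong.

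The named genes are the first 15 per direction on introns, 10 on exons and 6 on the ratio, ranked by the smaller of the 2 series' changes, up to 4 per list, and Cirbp and Rbm3. Some genes that met this rule are not reported here. Genes named at the threshold, those that moved in opposite directions, list members quoted for comparison and Lars2 were chosen after their values were seen. The genes and the 26 lists were chosen with earlier results of these data known. Promoter windows came from RefSeq (GRCm38.p6), the entry listed at the top for each of 27025 symbols, matched by symbol. The motifs searched were the heat shock element core, the E-box, TGACGTCA (CRE), TGACTCA (AP-1), TTATGTAA (D-box) and the CArG box by name.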

Additional observations from a re-analysis of the deposited data

How the results depend on the processing

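No paired analysis was possible because the labels give 1 sample per time and no replicate numbers; changes within each column series were described without a test. Counts below are genes up and genes down. Scaling by TMM, by median-of-ratios factors or by totals without the 100 largest genes kept every count within 1.5 times and moved the median of all genes by under 0.03 on the log2 scale, and so did scaling introns by exon totals (219 and 267). With at least 20 reads exon counts were 43 and 44. With at least 200 they were 140 and 132 on introns, 2 down on exons, and 123 and 94 for the ratio. With no filter they were 876 and 462 on introns, 209 and 205 on exons, and 576 and 879 for the ratio. A pseudocount of 1 left 6 exon falls. At 2-fold they were 57 and 24 on introns, 3 and 2 on exons, and 24 and 21 for the ratio. Series 5 alone gave 574 and 1024 on introns, 165 and 391 on exons, and 490 and 282 for the ratio. Series 11 alone gave 494 rises on introns, 72 and 55 on exons, and 324 and 342 for the ratio. Series 10 in place of series 11 at 1 h gave 370 falls on introns and 73 on exons. Without genes that overlap another, which leaves fewer genes, they were 103 and 104 on introns, 15 and 6 on exons, and 84 and 76 for the ratio.

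For the shares of cooling risers that fell and cooling fallers that rose on warming, alternatives were added after seeing the data. They were 32.9% and 29.2% with no filter, 36.8% and 37.5% at 2-fold in both shifts, and 36.8% and 23.8% from series 5 alone. Series 11 alone gave 31.0% of risers, and series 10 at 1 h gave 38.9% of fallers. The cause of these moves was not tested. Of 74 values of named genes, the number outside the counting interval of the main value was 30 with series 5 alone, 29 with series 11 alone, 28 with series 10 at 1 h and 21 with a pseudocount of 1, and at most 3 under any other scaling. The exon change of Rbm3 was 1.07 from series 5 alone and -0.12 from series 11 alone. The sign of called genes cannot turn with 1 series alone, since the calls required it in both.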

Other observations

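Other promoter motifs were looked for in the same windows. The CRE was found in 6 of 174 windows of genes that rose on introns (3.45%) and in 0 of 151 of genes that fell, beside 3.45% of the 7747 genes counted. The AP-1 site was found in 11 of 174 (6.32%) and in 3 of 151 (1.99%), beside 3.41%. The D-box was found in 2 of 174 (1.15%) and in 1 of 151 (0.662%), beside 0.4%, and the CArG box in 2 of 174 (1.15%) and in 2 of 151 (1.32%), beside 1.28%. These are descriptions of letters in a window, with no test.

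Of the listed splicing regulators, Ptbp2 was the only one called on introns, where 2.37% of all genes rose and 2.03% fell. Genes of the SR proteins and Tra2 had a median intron change of 0.14 with 0 of 12 called, and the CLK, DYRK and SRPK kinases had 0.01 with 0 of 11 called. The hnRNP genes had a median intron change of 0.19, with 14 of 20 counted members higher in both series and 5 lower. Of all 10759 genes, 3688 were higher and 4229 lower in both series. Targets of the factor SRF in the actin cytoskeleton had cooling medians of -0.02 in series 5 and -0.06 in series 11, and warming medians of 0.60 in series 2 and 0.71 in series 13, so that list stood near 0 on cooling and above 0 on warming. Genes of cholesterol synthesis and uptake had a median intron change of -0.09 with 0 of 21 called.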
